A study of Mus musculus with 6 samples.

Results

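The genes that build cholesterol and the genes that export it were followed as a set of 32 named members, out of 32286 features in the files, in cells of injured mouse quadriceps. The members were taken by symbol from a fixed list: 19 enzymes of the synthesis pathway, 6 genes of its transcriptional control, 5 genes of the sterol-sensing nuclear receptors and their export targets, and 2 genes of sterol storage and lysosomal egress. The list was proposed with differences between the groups of these same libraries in view, so what follows describes the size and spread of those differences and supports nothing beyond them.

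All 6 mice carried Cdh5-CreERT2:R26R-tdTomato, a tamoxifen-dependent Cre recombinase driven by the endothelial Cdh5 promoter with a Cre-dependent red reporter. In every mouse the quadriceps was damaged with cardiotoxin, a venom toxin that kills muscle fibres, and was taken 5 days later. The CLL group (3 mice) received clodronate liposomes into a vein 1 day before and 2 days after the injury, and the SHAM group (3 mice) received PBS liposomes on the same days. Clodronate liposomes are taken up by phagocytes and kill them. Per the labels the ablation of circulating monocytes was partial, so the CLL muscles still held macrophages, and each library came from its own mouse. Age, sex and any tamoxifen treatment were not given in the sources used here.

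Cells make cholesterol from acetyl-CoA through mevalonate, farnesyl diphosphate and squalene. When membrane sterol is low, the chaperone SCAP carries the transcription factor SREBP-2 out of the endoplasmic reticulum and it turns on nearly all enzymes of the route; when sterol is plentiful, the INSIG proteins hold that complex back. Oxysterols made when sterol is abundant activate the liver X receptors (LXR), which turn on the exporters ABCA1 and ABCG1 and the ubiquitin ligase MYLIP, which marks lipoprotein receptors for degradation. In regenerating muscle, macrophages that have engulfed dead fibres carry a large sterol load and are known for strong LXR activity.

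SREBP binds sterol elements together with the factor NF-Y at CCAAT boxes, and LXR binds a direct repeat spaced by 4 bases (DR4). The start regions of 5 members are therefore shown: 4 synthesis genes, which carry these short words in different numbers, and the export gene Abca1, which carries a DR4-type word. Each is the stretch of 150 bases directly before the most upstream transcript start that RefSeq or GENCODE gives, in build GRCm38.p6, credited to RefSeq and read 5′ to 3′ on the gene's own strand. They lie at chr13:119690201-119690350 (Hmgcs1, + strand), chr5:114444119-114444268 (Mvk, + strand), chr8:122443423-122443572 (Mvd, - strand), chrX:8193513-8193662 (Ebp, - strand) and chr4:53159896-53160045 (Abca1, - strand). Capitals mark a match, on either strand, to the sterol element TCACNCCAC, to CCAAT or to the DR4-type word, which is GGTNA, 5 bases of any kind and GGTCA.
Hmgcs1: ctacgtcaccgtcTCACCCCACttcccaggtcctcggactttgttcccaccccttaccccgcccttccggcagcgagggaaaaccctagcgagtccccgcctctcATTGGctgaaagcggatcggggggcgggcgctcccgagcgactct
Mvk: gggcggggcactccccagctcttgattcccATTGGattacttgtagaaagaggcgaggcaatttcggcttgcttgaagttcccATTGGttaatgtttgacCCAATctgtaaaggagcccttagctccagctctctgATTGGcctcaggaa
Mvd: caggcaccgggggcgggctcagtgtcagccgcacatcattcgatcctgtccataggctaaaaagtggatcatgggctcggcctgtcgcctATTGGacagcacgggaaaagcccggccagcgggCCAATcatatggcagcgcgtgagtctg
Ebp: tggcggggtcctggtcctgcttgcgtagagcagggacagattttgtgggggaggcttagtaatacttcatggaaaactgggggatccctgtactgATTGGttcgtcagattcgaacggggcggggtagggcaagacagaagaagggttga
Abca1: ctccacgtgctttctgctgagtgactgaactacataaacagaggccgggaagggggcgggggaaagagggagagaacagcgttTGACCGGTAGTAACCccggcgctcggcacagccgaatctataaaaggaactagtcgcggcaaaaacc
The Hmgcs1 stretch held 1 sterol element, which starts 137 bases before its end, and 1 CCAAT box. Mvk held 4 CCAAT boxes, Mvd held 2 and Ebp held 1. The DR4-type word of Abca1 starts 67 bases before the end of its stretch, and no printed match overlaps another.

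The same words were searched on both strands in the RefSeq windows from 250 bases before to 50 bases after each start, for 27025 genes, of which 26 members had a window and 6 did not (Fdps, Fdft1, Sqle, Stard4, Abcg1 and Npc1). CCAAT was in 15 of 16 synthesis genes (93.75%, all but Acat2) and in 11096 of all genes (41.06%). TCACNCCAC was in 1 member, Hmgcs1, and in 388 of all genes (1.436%). The DR4-type word was in 2 members, Abca1 and Srebf1, and in 61 of all genes (0.2257%). A match is a word in the sequence and no measure of binding, and a word that was not found says nothing about the factor.

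Cells were grouped by clustering and named from marker genes, and the counts of unique molecular identifiers (UMIs) were summed per library and class, so the mouse is the replicate. Of 60282 barcodes 46685 were kept, from 1848 to 19346 per library, and 5 classes held at least 20 cells in every library and were fitted. Over all kept cells CLL replicate 2 and SHAM replicate 3 were shallow, and they are called the shallow libraries below. Their medians were 1624 and 879 UMIs per cell against 2760 to 13820 in the others. Of the cells of SHAM replicate 3, 80.45% stayed unnamed. Its cells in the fitted classes were not shallow, with medians of 22132 UMIs in fibroblast/tenocyte-like and 18608 in macrophage/monocyte-like cells. SHAM replicate 1 had 3925.5 and 2701.5 there. SHAM replicate 1 held the most cells and lost 20.02% of its filtered barcodes as doublets, against 1.65% to 11.25% elsewhere. Any pair of libraries shared at most 57 barcodes, or at most 0.866% of the smaller library. Levels are CPM, the usual depth-normalised count, here a gene's share of the class sum, scaled by TMM unless called unscaled, and are listed for replicates 1, 2 and 3 in that order. Differences are log2 fold changes, CLL over SHAM, with their standard error, and adjusted p-values are from edgeR's quasi-likelihood test with Benjamini-Hochberg adjustment over all genes of the class, called at 0.05.

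In fibroblast/tenocyte-like cells, the connective tissue cells that lay down matrix in the injured muscle, 16 of the 32 members rose and 3 fell in CLL. Of the 19 synthesis genes 13 rose, among them Hmgcs1 early and Ebp late in the route, and Abca1, Abcg1 and Mylip fell. Over all 14656 genes of this class 11.9% were called higher and 13.6% lower, and since the list was chosen on this contrast the counts are a description. The median log2 fold change was 0.62 over the 32 members and -0.02 over all genes. The class sums held 8322036 to 43049012 UMIs per library.

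Of the 8 mevalonate and isoprenoid genes, 6 rose in this class. Fdps (chr3:89093588-89101959, GENCODE M21 on GRCm38, minus strand), which makes farnesyl diphosphate, stood at 78.0, 68.4 and 105 CPM in CLL and at 22.0, 15.5 and 16.0 CPM in SHAM. The lowest CLL library lay far above the highest SHAM library, and the log2 fold change was 2.22 ± 0.19 (SE, n = 3 and 3, edgeR adjusted p = 0.00018). Idi1 (chr13:8885501-8892451, plus strand), the isomerase that makes the second isoprene building block, stood at 16.8, 21.7 and 18.6 CPM against 8.31, 2.66 and 3.38 CPM, a log2 fold change of 1.88 ± 0.31 (edgeR adjusted p = 0.00288). SHAM replicate 1 was the highest of the SHAM libraries for Idi1 and still under every CLL library.
Hmgcs1 (chr13:119690379-119708260, plus strand), the HMG-CoA synthase whose start region is printed above, stood at 64.8, 71.0 and 68.9 CPM against 35.7, 21.2 and 23.7 CPM. The groups did not overlap, with a log2 fold change of 1.33 ± 0.17 (edgeR adjusted p = 0.00103). Mvk, Pmvk and Mvd, the kinases and the decarboxylase that turn mevalonate into isopentenyl diphosphate, rose by log2 0.88, 0.63 and 1.18. The remaining pair did not pass the test: Acat2, the cytosolic thiolase of the first step, at 0.50 ± 0.17 (edgeR adjusted p = 0.0516), and Ggps1, which draws farnesyl diphosphate off toward geranylgeranyl diphosphate, at -0.06 ± 0.10. Ggps1 levels were 24.6 to 25.0 CPM in CLL and 24.9 to 26.7 CPM in SHAM, an even level beside the change of Fdps one step before it.

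Of the 11 genes from squalene to cholesterol, 7 rose and all 11 had log2 fold changes above 0. Sqle (chr15:59315077-59331192, plus strand), the squalene epoxidase that limits the later route, stood at 23.7, 20.7 and 25.8 CPM against 7.23, 4.72 and 4.40 CPM. The CLL libraries were close together and all above SHAM, with a log2 fold change of 2.05 ± 0.19 (edgeR adjusted p = 0.000187). Cyp51 (chr5:4081145-4104746, minus strand), the lanosterol demethylase, stood at 44.3, 50.8 and 48.9 CPM against 18.8, 10.2 and 11.4 CPM. Its log2 fold change was 1.80 ± 0.20 (edgeR adjusted p = 0.000484), with no overlap of the groups. Msmo1, the sterol methyl oxidase that acts after Cyp51, rose by log2 1.70 ± 0.19 and Fdft1, the squalene synthase, by 1.13 ± 0.16. Lss, Hsd17b7 and Ebp rose by log2 0.79, 0.79 and 0.64. Dhcr7, Tm7sf2, Sc5d and Nsdhl lay at log2 0.41 to 0.82 and did not pass the test, with edgeR adjusted p-values of 0.0559, 0.0734, 0.0766 and 0.200.

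In the control layer of this class, 3 of 6 genes rose. Insig1, which retains the SCAP complex and is itself a target of SREBP-2, stood at 34.4, 40.1 and 34.4 CPM in CLL and at 23.5, 17.1 and 15.0 CPM in SHAM. All CLL libraries were above all SHAM libraries, at log2 0.95 ± 0.16 (edgeR adjusted p = 0.00308). Stard4, a carrier that moves sterol between membranes inside the cell, rose by log2 1.09 ± 0.23, and Srebf2, which encodes SREBP-2, by 0.57 ± 0.13 (edgeR adjusted p = 0.00856 and 0.0113). Srebf1, whose product mainly drives fatty acid genes, was at 16.3 to 19.7 CPM in CLL and 16.7 to 18.6 CPM in SHAM, a log2 fold change of 0.04 ± 0.12 (edgeR adjusted p = 0.815). Scap and Insig2 did not pass the test, at 0.01 and -0.16.

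The 3 export and degradation genes fell in this class, whose sums also held macrophage markers at 197 to 259 CPM in CLL and 354 to 948 CPM in SHAM. Abca1 (chr4:53030787-53159895, minus strand), which loads cellular cholesterol onto apolipoprotein A-I, stood at 18.4, 18.8 and 17.2 CPM in CLL and at 71.7, 67.3 and 48.4 CPM in SHAM. The CLL libraries were nearly equal, every SHAM library was above them, and the log2 fold change was -1.79 ± 0.15 (edgeR adjusted p = 0.000158). Abcg1 (chr17:31057675-31117988, plus strand), which passes cholesterol to lipoprotein particles, stood at 6.66, 7.00 and 6.77 CPM against 24.1, 26.4 and 16.6 CPM. It fell by 1.72 ± 0.17 on the log2 scale (edgeR adjusted p = 0.00025), again without overlap. Mylip (chr13:45389742-45412022, plus strand) stood at 34.9, 32.7 and 37.7 CPM against 58.7, 57.5 and 59.6 CPM, a log2 fold change of -0.74 ± 0.10 (edgeR adjusted p = 0.00125). The receptor genes themselves did not pass the test: Nr1h2 (LXR beta) lay at -0.15 ± 0.12 and Nr1h3 (LXR alpha) at -0.37 ± 0.25. Soat1, which esterifies cholesterol for storage, and Npc1, which lets it out of lysosomes, lay at 0.16 ± 0.17 and 0.03 ± 0.14 and did not pass either.

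**Figure D1:**
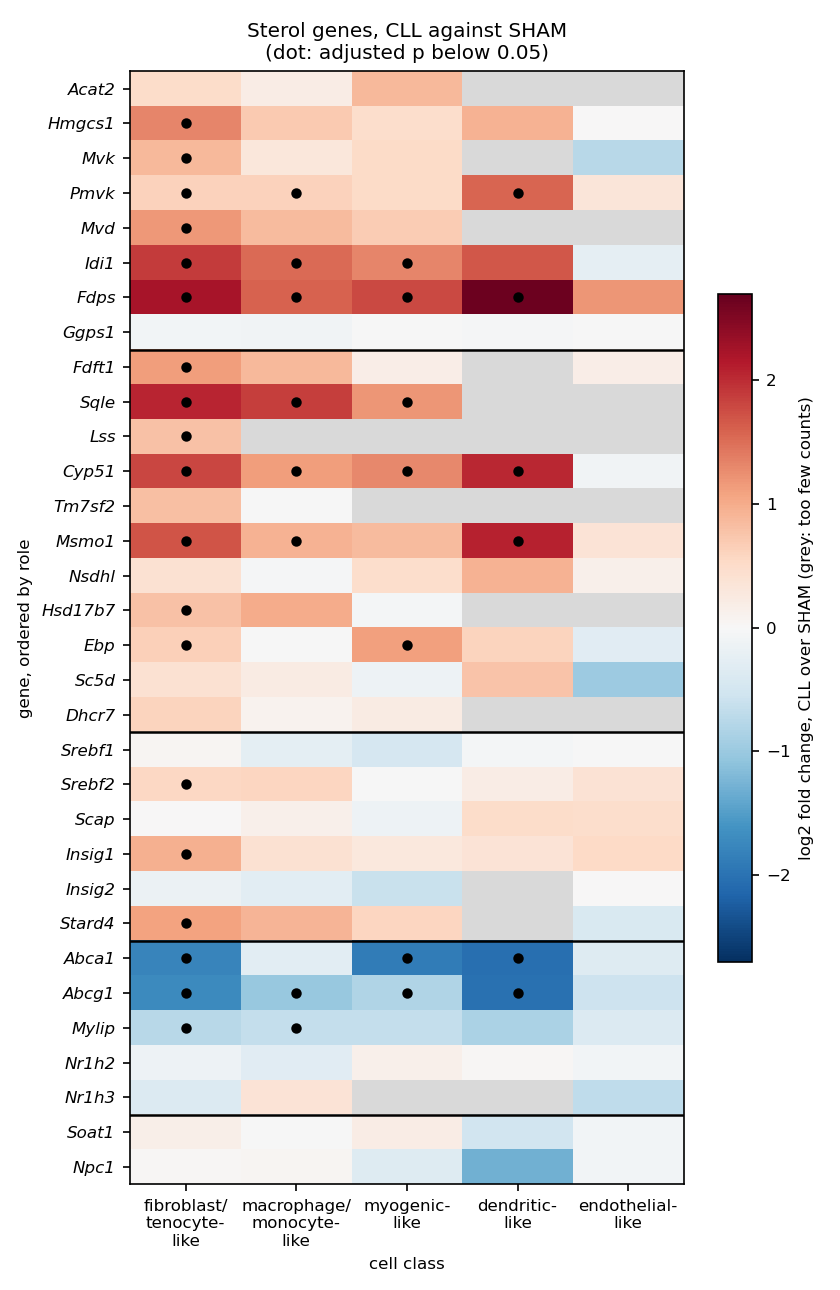
Log2 fold change, CLL over SHAM, of the 32 members (rows, ordered by role and split by lines into mevalonate steps, squalene to cholesterol, control, LXR and export, storage) in the 5 fitted classes (columns). Dots mark edgeR adjusted p below 0.05 and grey marks genes with too few counts; the fibroblast/tenocyte-like column holds 16 dots on red and 3 on blue cells, and the endothelial-like column holds none.

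With each library left out in turn, 13 to 18 members were called higher and 3 lower in this class. Over all genes 7.16% to 10.86% were called higher in these fits, and 1068 to 1729 genes lower. Fdps, Sqle, Cyp51, Msmo1, Hmgcs1, Fdft1, Idi1, Insig1, Stard4, Srebf2, Abca1, Abcg1 and Mylip passed in 6 of 6 such fits. The class is a mixture whose parts differ between the groups: cluster 11, led by Dio3, Ecrg4 and Ccn5, held 1175, 1763 and 1895 cells in CLL and 589, 39 and 47 in SHAM. Cluster 13, led by Ly6h and Gdf10, held 161 to 211 CLL cells per library and 168 to 2072 SHAM cells, and cluster 14 took 3681 of its 4740 cells from CLL replicate 2. The fits were therefore repeated inside each of 6 clusters with enough cells, a step chosen after the data were seen.

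Abca1 was called lower in 6 of these 6 clusters, with log2 fold changes from -1.91 in cluster 22 to -0.78 in cluster 13. Abcg1 was called lower in 4 of the 4 clusters where it could be tested, from -1.89 to -1.12. Mylip was called lower in 1 of 6, cluster 0, with log2 fold changes from -1.05 to -0.38 over the 6. Fdps was called higher in 4 of 5 clusters (0, 11, 13 and 15), from 1.00 to 2.18, and stood at 1.10 ± 0.40 in cluster 14 (edgeR adjusted p = 0.193). Sqle was called higher in 3 of 5 clusters, Cyp51 in 2 of 5, and Hmgcs1, Idi1 and Msmo1 in cluster 11. The number of members called higher was 2, 6, 2, 0, 1 and 1 in clusters 0, 11, 13, 14, 15 and 22, of 32, 32, 30, 16, 16 and 12 tested. Over all genes of these clusters 1.47%, 1.98%, 1.2%, 0.528%, 1.01% and 2.4% were called higher. The number called lower was 3, 2, 2, 1, 1 and 2, beside 2.21%, 1.72%, 1.24%, 0.264%, 0.873% and 2.4% of all genes. In cluster 14, where edgeR called 0 higher, 3 members had an unadjusted p below 0.05 in that direction. The Abca1 log2 fold change was -1.204 in cluster 11, mostly CLL cells, and -0.78 in cluster 13, mostly SHAM cells, beside -1.79 in the whole class; the difference between these values was not tested.

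In macrophage/monocyte-like cells, the phagocytes that clear dead fibres, 6 of 31 tested members rose and 2 fell in CLL. Over the 11298 genes of this class 1.5% were called higher and 2.36% lower, and again the list was chosen with this contrast in view. The median log2 fold change was 0.23 over the tested members and -0.01 over all genes. The 6 that rose were synthesis enzymes: Fdps, Idi1, Pmvk, Sqle, Cyp51 and Msmo1. The class sums held 3050436 to 18121295 UMIs.

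Fdps stood at 34.3, 24.2 and 43.7 CPM in CLL and at 11.5, 12.05 and 10.8 CPM in SHAM macrophages. CLL replicate 2 was the lowest of its group and still above every SHAM library, and the log2 fold change was 1.60 ± 0.20 (edgeR adjusted p = 0.00417). Idi1 stood at 10.9, 11.3 and 12.97 CPM against 4.62, 4.45 and 3.11 CPM, a log2 fold change of 1.52 ± 0.22 (edgeR adjusted p = 0.00685). The Idi1 groups were tight and apart. Sqle stood at 7.98, 7.35 and 10.2 CPM against 3.31, 0.927 and 2.15 CPM, where SHAM replicate 2 rests on 5 UMIs. It rose by log2 1.86 ± 0.35 (edgeR adjusted p = 0.0186). Cyp51 rose by log2 1.14 ± 0.18 and Msmo1 by 0.93 ± 0.15, and Pmvk by 0.63 ± 0.13 (edgeR adjusted p = 0.0105, 0.0111 and 0.0287).
Hmgcs1 was at 23.8, 21.4 and 31.1 CPM against 18.2, 12.97 and 15.2 CPM, at log2 0.71 ± 0.18, and did not pass (edgeR adjusted p = 0.06). Ebp, the sterol isomerase, was at 46.2 to 68.1 CPM in CLL and 54.6 to 67.3 CPM in SHAM, with overlapping groups and a log2 fold change of -0.01 ± 0.16. Mvd, Fdft1, Hsd17b7 and Stard4 lay at 0.85 to 0.99 and did not pass the test. In the control layer 0 of 6 genes were called by edgeR and 0 by DESeq2, while 3 had an unadjusted edgeR p below 0.05. Srebf2 lay at 0.59 ± 0.17, Insig1 at 0.42 ± 0.13 and Srebf1 at -0.27 ± 0.20.

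Abcg1 stood at 78.8, 79.0 and 79.1 CPM in CLL and 167, 148 and 164 CPM in SHAM. The CLL libraries were nearly equal and all below SHAM, and it fell by 1.01 ± 0.12 on the log2 scale (edgeR adjusted p = 0.00367). Mylip stood at 32.2, 42.6 and 35.3 CPM against 59.6, 54.5 and 57.0 CPM, a log2 fold change of -0.65 ± 0.14 (edgeR adjusted p = 0.0291). Abca1 was at 297, 354 and 255 CPM against 389, 385 and 333 CPM. CLL replicate 2 lay above SHAM replicate 3, so the groups overlapped, and the log2 fold change of -0.29 ± 0.16 did not pass (edgeR adjusted p = 0.34). Nr1h3, the receptor form known from macrophages, was at 47.7, 26.0 and 57.1 CPM against 31.5, 35.8 and 36.4 CPM and did not pass (0.37 ± 0.23). Soat1 and Npc1 were even, at -0.01 ± 0.14 and 0.05 ± 0.12.

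**Figure D2:**
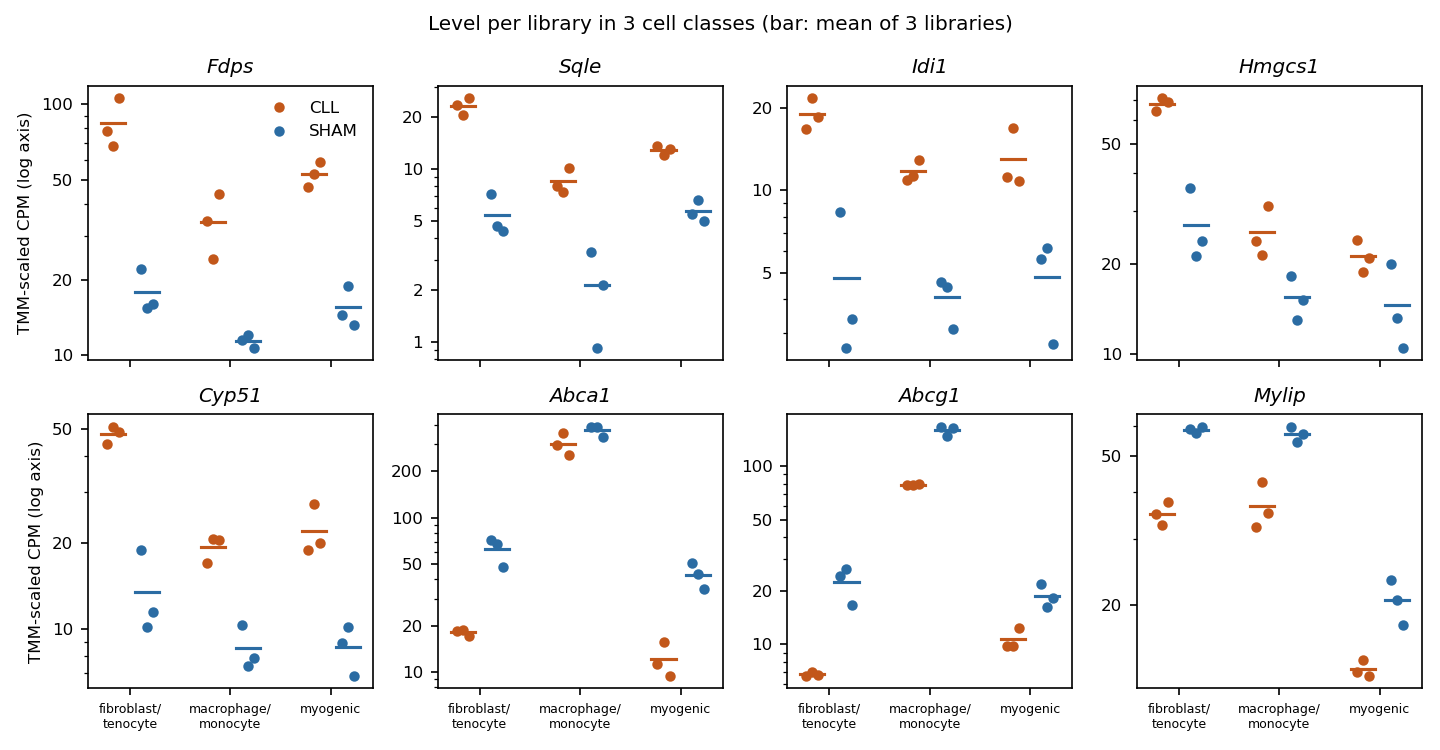
TMM-scaled CPM on a log axis for 8 members in 3 classes, 1 point per library with CLL in orange and SHAM in blue, and a bar at the mean of 3 libraries. Fdps and Abcg1 separate the groups in every class shown, and Abca1 separates them in fibroblast/tenocyte-like and myogenic-like cells but not in macrophage/monocyte-like cells, where CLL replicate 2 at 354 lies above SHAM replicate 3 at 333.

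Fdps and Abcg1 passed in 6 of 6 fits with a library left out. Each of the other macrophage calls was lost in some of these fits. Without CLL replicate 3 only 1 member was called higher, without CLL replicate 1 there were 3, and without SHAM replicate 1 there were 9. The shares of all genes called higher were, in the same order, 0.174%, 0.109% and 3.12%, beside 1.5% with all libraries. Cyp51 and Idi1 were lost without CLL replicate 3 (edgeR adjusted p = 0.0697 and 0.0586). Msmo1 was lost without CLL replicate 1 or 3, with an edgeR adjusted p of up to 0.072. Sqle and Mylip were each lost without CLL replicate 1, CLL replicate 3 or SHAM replicate 3, at up to 0.1195 and 0.183, and Pmvk passed in 2 of 6 fits. Mylip was the call lost among the 2 lower members, which left 1 in those 3 fits. Over all genes 31, 35 and 119 were called lower in them, beside 267 with all libraries. Without the 2 shallow libraries 1 member was called higher and 1 lower, beside 11 and 44 of all genes.

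The macrophage class joins 3 clusters: cluster 7, led by Gpnmb and Atp6v0d2, cluster 9, led by F13a1, Cbr2 and Cd163, and cluster 10, led by antigen presentation genes and Ccr2. Cluster 10 supplied 57 to 212 CLL cells per library and 179 to 2763 SHAM cells. Fdps, Cyp51, Abcg1 and Mylip passed the test in all 3 clusters. Fdps rose there by log2 1.68 to 1.78 and Abcg1 fell by 0.84 to 1.28. Abca1 was below 0 in each, at -0.46 and -0.49 in clusters 7 and 9 (edgeR adjusted p = 0.164 and 0.0516), and fell by 0.89 ± 0.17 in cluster 10 (edgeR adjusted p = 0.0325). Besides Abca1, the members called in a cluster and not in the whole class were Nr1h3 and Insig1 in cluster 9 and Srebf2 in cluster 10, at log2 0.98, 0.61 and 1.03. Members called higher numbered 5, 5 and 4 in clusters 7, 9 and 10, where 1.06%, 2.94% and 0.323% of all genes were called higher. Members called lower numbered 2, 2 and 3, beside 1.6%, 4.68% and 0.924% of all genes.

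The treatment differences of the macrophage/monocyte-like and fibroblast/tenocyte-like classes were compared directly, in an edgeR model with the library as a block and the interaction of class and treatment as the tested term. Of 13531 genes 336 (2.48%) were called, among them 2 members. Abca1 differed by log2 1.50 ± 0.15 (edgeR adjusted p = 0.00596), beside -1.79 in fibroblast/tenocyte-like cells and -0.29 in macrophages in the separate fits. Both classes are mixtures whose make-up differed between the groups. Inside single clusters Abca1 lay at -0.89 to -0.46 in macrophages and at -1.91 to -0.78 in fibroblast/tenocyte-like cells, so these ranges overlapped. The interaction was not fitted inside clusters. Ebp differed by -0.63 ± 0.13 (edgeR adjusted p = 0.0464), with 0.64 in fibroblast/tenocyte-like cells and -0.01 in macrophages. Abcg1, Cyp51, Msmo1 and Fdps differed by 0.72, -0.60, -0.73 and -0.59 and did not pass, with edgeR adjusted p-values of 0.0889, 0.0889, 0.101 and 0.112. The Abca1 call held in 5 of 6 fits with a library left out and was lost without CLL replicate 1 (1.52, edgeR adjusted p = 0.0613). Ebp passed in 1 of these 6 fits, that without SHAM replicate 2, and had adjusted p-values of 0.0723 to 0.177 in the others.

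In myogenic-like cells, the muscle stem cells and their fusing progeny, 5 of 29 tested members rose and 2 fell in CLL. Over the 11013 genes of this class 2.8% were called higher and 3.38% lower. The median log2 fold change was 0.22 over the tested members and -0.03 over all genes. The class sums held 2108955 to 7515005 UMIs. The class joins cluster 2, led by the stem cell genes Pax7 and Myf5, and cluster 5, led by genes of fusing cells such as Myog and Mymk, and its make-up differed between the groups. Cluster 5 held 22.29%, 51.39% and 30.86% of the class in CLL and 12.77%, 19.38% and 14.56% in SHAM. Myofibre markers summed to 2859 to 8496 CPM in CLL and 1368 to 2187 CPM in SHAM.

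Fdps stood at 46.8, 52.7 and 58.6 CPM in CLL and at 14.5, 18.9 and 13.2 CPM in SHAM, well apart, with a log2 fold change of 1.77 ± 0.18 (edgeR adjusted p = 0.00162). Ebp stood at 65.4, 55.4 and 62.8 CPM against 30.6, 30.4 and 23.7 CPM and rose by log2 1.11 ± 0.16 (edgeR adjusted p = 0.00547). Neither gene's groups overlapped. Cyp51, Sqle and Idi1 rose by log2 1.31 ± 0.23, 1.201 ± 0.22 and 1.31 ± 0.31 (edgeR adjusted p = 0.0135, 0.0161 and 0.0362). Hmgcs1 was at 18.8 to 23.9 CPM in CLL and 10.5 to 19.9 CPM in SHAM, with overlap, at log2 0.48 ± 0.24. Msmo1 lay at 0.85 ± 0.25 (edgeR adjusted p = 0.0776), Acat2 at 0.87 ± 0.33 and Stard4 at 0.58 ± 0.39, and none of these passed.
Of the 6 control genes, edgeR called 0 and DESeq2 called 0, and 1 had an unadjusted edgeR p below 0.05. That was Insig2, at 24.6 to 32.4 CPM in CLL and 36.5 to 48.5 CPM in SHAM (log2 -0.59 ± 0.17, edgeR adjusted p = 0.069). Srebf2 was even at -0.02 ± 0.15, Srebf1 lay at -0.45 ± 0.21 and Insig1 at 0.28 ± 0.17.

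Abca1 stood at 11.4, 15.6 and 9.48 CPM in CLL and at 50.9, 43.2 and 34.7 CPM in SHAM myogenic-like cells. The highest CLL library was below the lowest SHAM library, and it fell by 1.89 ± 0.22 on the log2 scale (edgeR adjusted p = 0.00224). Abcg1 stood at 9.86, 9.83 and 12.3 CPM against 21.8, 16.3 and 18.2 CPM, a log2 fold change of -0.82 ± 0.20 (edgeR adjusted p = 0.0443). Macrophage markers here were 189 to 712 CPM in CLL and 452 to 1753 CPM in SHAM. Mylip, at 13.001 to 14.3 CPM against 17.8 to 23.3 CPM, did not pass (-0.64 ± 0.18, edgeR adjusted p = 0.0706). With a library left out, Abca1, Fdps and Ebp passed in 6 of 6 fits, Cyp51 in 5, Sqle in 2, Idi1 in 1 and Abcg1 in 0. Of the 5 higher calls 3 were left without CLL replicate 1, CLL replicate 3 or SHAM replicate 1, and 2 without SHAM replicate 3. The shares of all genes called higher were, in the same order, 1.61%, 0.722%, 1.53% and 0.644%, beside 2.8% with all libraries. Of the 2 lower calls 1 was left in each of the 6 fits, and the Abcg1 edgeR adjusted p reached 0.0505 to 0.137 there. Over all genes 101 to 504 were called lower in these fits.

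The myogenic fits were repeated inside both clusters, also chosen after the data were seen. In cluster 2, 8 of 29 tested members were called higher and 4 lower, where 7.31% of all genes were called higher and 8.4% lower. Fdps, Ebp, Cyp51, Sqle and Idi1 were among the higher ones, at log2 2.09, 1.12, 1.19, 1.28 and 1.32, with Msmo1, Mvk and Acat2 beside them. The 4 lower ones were Abca1 (-2.10), Abcg1 (-0.77), Mylip (-0.92) and Insig2 (-0.58). In cluster 5, where SHAM replicate 3 had too few cells and was left out, edgeR called 0% of 9149 genes higher and 0% lower, and so 0 of 23 members. Unadjusted p-values below 0.05 were found there for 5 members above 0 and 2 below, and Abca1 lay at -2.03 ± 0.47, Ebp at 1.51 ± 0.34 and Fdps at 1.05 ± 0.33 (edgeR adjusted p = 0.478, 0.478 and 0.479).

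In dendritic-like cells, which present antigen, 20 members had enough counts, and 4 rose and 2 fell in CLL. Over the 7259 genes of this class 0.22% were called higher and 0.703% lower, and the median log2 fold change was 0.43 over the tested members against -0.04 over all genes. The class joins cluster 19, led by Cd209a, and cluster 21, led by Ccr7 and Ccl22. Cluster 21 held 34.41%, 60.94% and 37.69% of the class in CLL and 19.98%, 16.49% and 22.22% in SHAM, so the make-up differed between the groups. This class is thin, with sums of 134228 UMIs in CLL replicate 2 and 586220 to 2322301 in the others. Fdps stood at 79.8, 83.7 and 180 CPM against 16.6, 29.2 and 11.5 CPM, with no overlap, and rose by log2 2.65 ± 0.40 (edgeR adjusted p = 0.0146). Pmvk stood at 103, 129 and 138 CPM against 44.0, 44.9 and 32.9 CPM and rose by log2 1.57 ± 0.26 (edgeR adjusted p = 0.0146). Both genes were higher in every CLL library.
Cyp51 and Msmo1 rose by log2 2.03 ± 0.41 and 2.09 ± 0.44 (edgeR adjusted p = 0.044 and 0.0456), although CLL replicate 2 held only 1 Cyp51 UMI and 2 Msmo1 UMIs. Idi1 lay at 1.68 ± 0.44 (edgeR adjusted p = 0.0968) and Hmgcs1 at 0.94 ± 0.29 (edgeR adjusted p = 0.15), both with the groups apart. Abca1 stood at 11.8, 7.61 and 12.4 CPM against 55.0, 31.4 and 59.1 CPM, where CLL replicate 2 rests on 1 UMI, and fell by 2.03 ± 0.34 on the log2 scale (edgeR adjusted p = 0.0153). Abcg1 stood at 11.8, 7.61 and 25.2 CPM against 80.2, 60.6 and 78.8 CPM and fell by 2.01 ± 0.34 (edgeR adjusted p = 0.0153). Macrophage markers in these sums were 1573 to 1915 CPM in CLL and 3795 to 4942 CPM in SHAM. No member call of this class held in every fit with a library left out. The number called higher was 0 without CLL replicate 1, CLL replicate 3 or SHAM replicate 1, 2 without CLL replicate 2 or SHAM replicate 3 and 7 without SHAM replicate 2. The shares of all genes called higher were, in the same order, 0.0135%, 0.0135%, 0.0144%, 0.106%, 0.143% and 2.01%. The number called lower was 0 without CLL replicate 1, 2 or 3 or SHAM replicate 1, and 3 without SHAM replicate 2. Over all genes the numbers called lower were, in the same order, 0, 12, 0, 0 and 635.
Inside cluster 19, a fit also chosen after the data were seen, 5 of 20 tested members were called higher and 2 lower, where 0.186% of all genes were called higher and 0.668% lower. They were Fdps, Cyp51, Msmo1, Idi1 and Pmvk, at log2 1.38 to 3.07, and Abcg1 and Abca1, at -2.28 and -2.22. Cluster 21 held at least 20 cells in 1 SHAM library and was not fitted.

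In endothelial-like cells, the vessel lining that carries the Cdh5-driven Cre, edgeR called 0 of 25 tested members in either direction and DESeq2 also called 0. Over the 9346 genes of this class edgeR called 0.107% higher and 0.374% lower. With the replicate number as a block, a pairing that the labels do not give, the calls over all genes went from 45 to 135. There were 0 members among them. The member with an unadjusted p below 0.05 was Fdps, at 23.2, 48.7 and 58.2 CPM in CLL and 17.4, 20.6 and 23.0 CPM in SHAM (log2 1.202 ± 0.32, edgeR adjusted p = 0.188). CLL replicate 1, which rests on 4 UMIs, was only just above SHAM replicate 3, and the other CLL libraries were well above SHAM. In unscaled CPM CLL replicate 1 was below SHAM replicate 3, at 20.9 against 23.6. Lymphatic endothelial markers in these sums were at 2574, 24.1 and 506 CPM in CLL and 46.9 to 337 CPM in SHAM. Their part was not tested. Abca1 was at 133, 136 and 91.9 CPM against 175, 161 and 117 CPM, with overlap, at -0.34 ± 0.25. Abcg1 and Mylip lay at -0.56 ± 0.29 and -0.36 ± 0.26, Hmgcs1 at 0.00 ± 0.39 and Idi1 at -0.24 ± 0.65. The CLL sums here held 191552 to 415603 UMIs and the SHAM sums 2389630 to 8532743, and the standard errors were 0.25 to 0.32 for Abca1, Mylip, Abcg1 and Fdps and reached 0.71 for Nr1h3.

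For each library the mean log2(CPM + 1) of the 19 synthesis genes minus that of Abca1, Abcg1 and Mylip gives the balance the list was built around. It is a description, with no test. In fibroblast/tenocyte-like cells it was 0.05, -0.04 and 0.21 in CLL and -2.14, -2.48 and -2.08 in SHAM, a difference of means of 2.30. The synthesis mean differed there by 0.97 and the export mean by -1.33. In myogenic-like cells it was -0.01, -0.22 and 0.01 against -1.84, -1.61 and -1.53, a difference of 1.59. In macrophage/monocyte-like cells it was -3.02, -3.46 and -2.83 against -4.34, -4.31 and -4.24, a difference of 1.19. Dendritic-like cells differed by 2.79, with group means of 0.09 and -2.701. This value rests on thin counts, since only 10 of the 19 synthesis genes had enough counts to be tested in that class. In its CLL replicate 2, Abca1, Abcg1 and Mylip held 1 UMI each, and Sqle and Mvd held 0. Endothelial-like cells differed by 0.25, with means of -3.02 ± 0.47 (SD, n = 3) and -3.28 ± 0.13 and overlapping libraries.

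**Figure D3:**
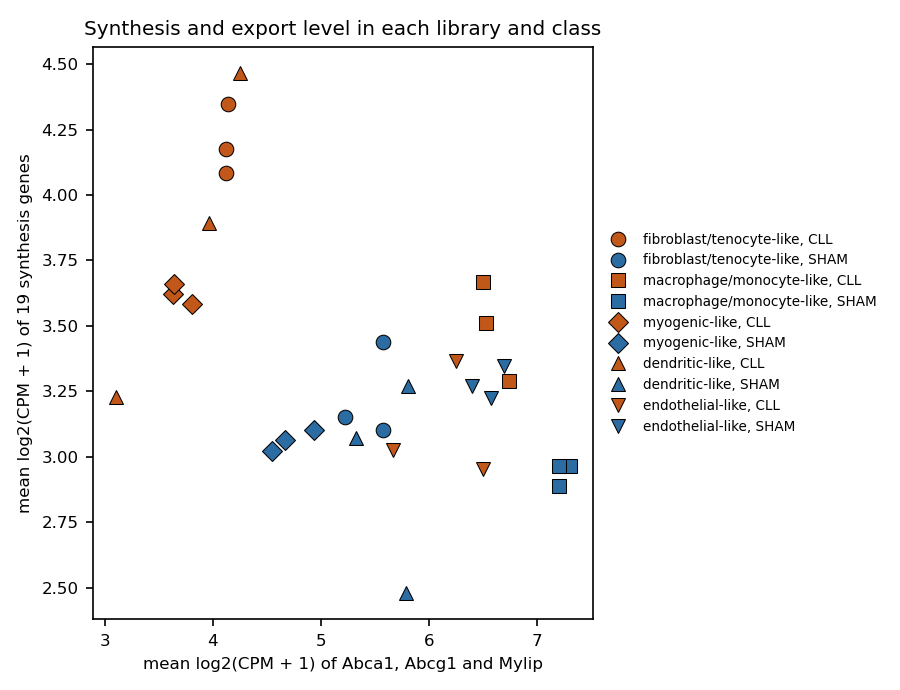
Mean log2(CPM + 1) of the 19 synthesis genes (vertical) against that of Abca1, Abcg1 and Mylip (horizontal), 1 symbol per library and class, CLL in orange and SHAM in blue. CLL symbols of the fibroblast/tenocyte-like class lie at 4.08 to 4.35 on the vertical axis and SHAM symbols at 3.10 to 3.44, while the endothelial-like symbols of both groups mix.

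Inside single clusters the balance kept the sign of its difference. It was higher in CLL by 1.22, 1.19 and 1.58 in macrophage clusters 7, 9 and 10. In the fibroblast/tenocyte clusters 0, 11, 13, 14, 15 and 22 the difference was 2.13, 1.63, 1.15, 3.42, 2.52 and 2.88, with 2 SHAM libraries in cluster 0. In cluster 14 the SHAM libraries were spread with an SD of 1.19. The values of clusters 14, 15 and 22 rest on thin counts, since only 16, 16 and 12 members had enough counts to be tested there. The smallest SHAM libraries held 25, 21 and 41 cells in these clusters. By edgeR 0, 1 and 1 members were called higher in them.

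**Figure D4:**
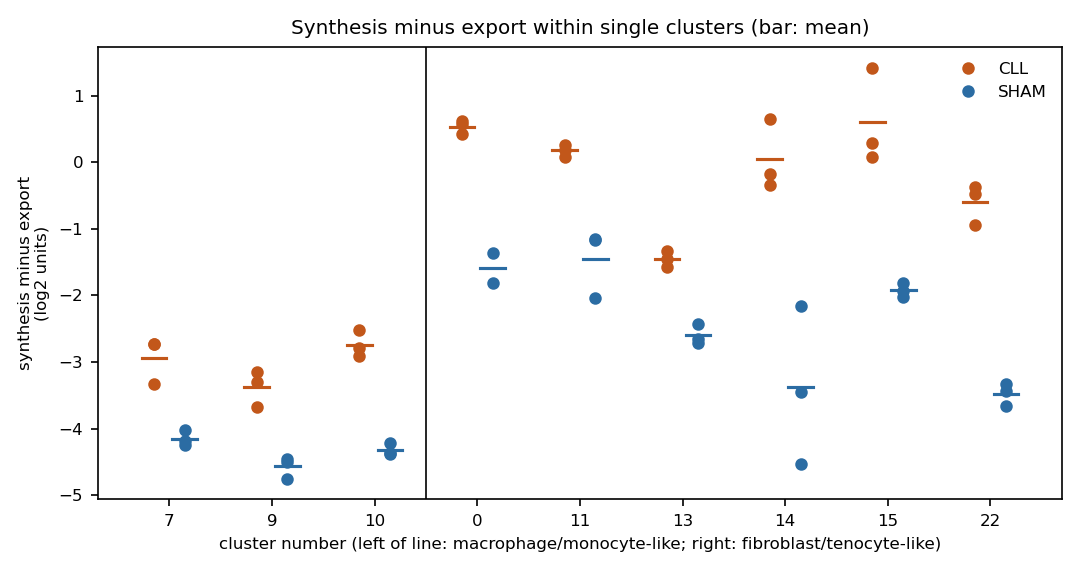
Synthesis minus export balance in log2 units by cluster number, 1 point per library with at least 20 cells in the cluster and a bar at the group mean; macrophage/monocyte-like clusters stand left of the line and fibroblast/tenocyte-like clusters right of it. In every cluster shown the CLL points lie above the SHAM points, with differences of means from 1.15 to 3.42. The largest differences, in clusters 14, 15 and 22, rest on thin counts.

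Across classes, Abca1 was highest in macrophages. In SHAM its unscaled CPM (mean ± SD over libraries) was 369 ± 51.5 in macrophage/monocyte-like cells and 159 ± 37.3 in endothelial-like cells (n = 3 each). Glial-like cells followed at 130 ± 58.7, mural-like cells at 83.1 ± 32.8, fibroblast/tenocyte-like cells at 64.9 ± 13.3, dendritic-like cells at 50.4 ± 19.5 and myogenic-like cells at 45.3 ± 10.7 (n = 3 each). Macrophages stood clear of the rest, while neighbours from endothelial-like down to myogenic-like lay within their spread of each other. Some classes too thin to fit also had lower Abca1 values in CLL: glial-like cells had 62.8 and 63.3 CPM in CLL replicates 1 and 2, from 11 and 30 UMIs, against 195, 80.2 and 116 CPM in SHAM. T/NK-like cells had 12.3 and 17.5 CPM in CLL replicates 1 and 3, from 5 UMIs each. SHAM replicates 1 and 2 had 108 and 20.6 CPM, from 77 and 11 UMIs, so the wide gap rests on SHAM replicate 1. Adipocyte-like cells, 651 of 701 from CLL replicate 2, had 128 and 146 CPM in CLL replicates 2 and 3 and no SHAM library with 20 cells.

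Transcripts of the macrophage markers were also found in the sums of other classes, at a higher mean level in SHAM. Whether they came from macrophages or from the cells of the class itself was not tested. The summed unscaled CPM of 17 macrophage markers, none of which was at 0, was 197 to 259 in CLL and 354 to 948 in SHAM for fibroblast/tenocyte-like cells. It was 189 to 712 against 452 to 1753 in myogenic-like cells, 1573 to 1915 against 3795 to 4942 in dendritic-like cells, and 219 to 583 against 1307 to 2666 in endothelial-like cells. The macrophage class itself held 28310 to 38480. Markers of mural cells in fibroblast/tenocyte-like sums were 125 to 135 CPM in CLL and 212 to 320 CPM in SHAM. Fibroblast markers in macrophage sums were 1835 to 2691 CPM in CLL and 1621 to 5649 CPM in SHAM, and in dendritic-like sums 2467 to 5498 and 1569 to 11550 CPM. Beyond the bound that follows, their part in the results was not tested.

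If all macrophage marker counts in a class had come along with whole macrophage RNA, the Abca1 brought along would be the marker ratio times the macrophage level. For fibroblast/tenocyte-like cells this was 3.46 to 12.3 CPM in SHAM, against 50.8 to 77.1 CPM measured. After its removal 43.9 to 64.9 CPM remained in SHAM and 14.5 to 15.6 CPM in CLL, still without overlap. In myogenic-like cells 21.0 to 43.6 CPM remained in SHAM and 4.84 to 8.86 CPM in CLL. In dendritic-like cells the measured Abca1 was below this amount in 5 of 6 libraries, so nothing can be read from Abca1 there by this bound. The bound counts any marker transcripts of the dendritic-like cells themselves as brought along. Abcg1 kept 39.5 to 63.9 CPM in SHAM and 1.73 to 19.7 CPM in CLL in that class. For Abcg1 in fibroblast/tenocyte-like cells 14.0 to 24.9 CPM remained in SHAM and 5.83 to 5.99 CPM in CLL. In myogenic-like cells the groups came close for Abcg1, with 11.6 to 18.7 CPM left in SHAM and 6.9 to 10.9 CPM in CLL.

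**Figure D5:**
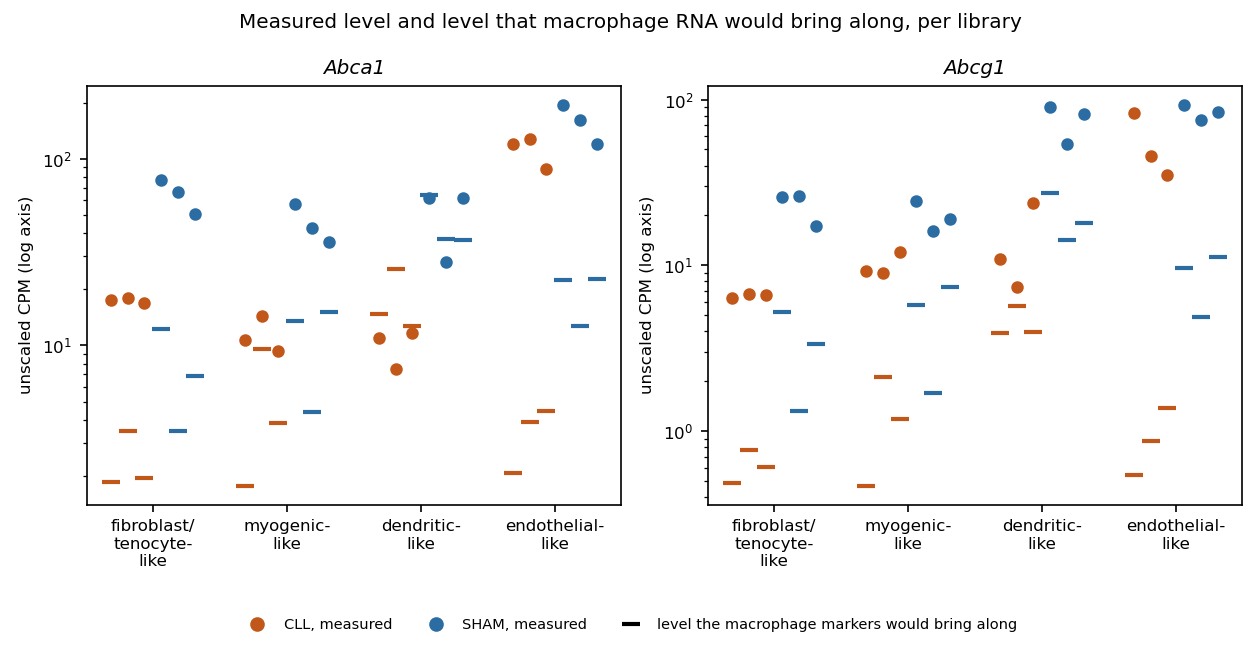
Unscaled CPM on a log axis of Abca1 and Abcg1 in 4 classes, 1 point per library with CLL in orange and SHAM in blue; the dash beside each point is the level that macrophage RNA would bring along, judged from the macrophage markers. In fibroblast/tenocyte-like cells the SHAM points of Abca1 at 50.8 to 77.1 stand far above their dashes at 3.46 to 12.3, and in dendritic-like cells points and dashes of Abca1 mix.

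Other genes of sterol and lipid handling were read from 5 lists with 66 genes. Of the 11 other LXR targets, 3 of 7 tested fell and 0 rose in fibroblast/tenocyte-like cells, beside the 13.6% of all genes called lower there. They were Pltp, the phospholipid transfer protein, at 6.66, 7.67 and 5.84 CPM against 32.03, 13.9 and 35.6 CPM (log2 -2.03 ± 0.28), Smpdl3a, a secreted phosphodiesterase, at -0.996 ± 0.12, and the apolipoprotein gene Apoc2 at -3.25 ± 0.53 from at most 4.40 CPM. Their edgeR adjusted p-values were 0.00135, 0.000759 and 0.0027, and the median of the 7 was -0.99. The amount that macrophage RNA could bring along was not worked out for these genes. In macrophages 2 of 8 fell, among them Apoc1 at 4.23, 5.21 and 3.76 CPM against 9.19, 19.6 and 21.3 CPM (log2 -1.93 ± 0.34, edgeR adjusted p = 0.0142), and the median was -0.64. In dendritic-like cells 1 of 6 fell, Pltp at -1.96 ± 0.39 (edgeR adjusted p = 0.0425). In myogenic-like and endothelial-like cells 1 of 5 fell in each. Over all genes 2.36% were called lower in macrophages, 0.703% in dendritic-like, 3.38% in myogenic-like and 0.374% in endothelial-like cells.

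Of the sterol uptake, transport and oxidation genes, 1 of 19 rose and 5 fell in fibroblast/tenocyte-like cells, where 11.9% of all genes were called higher and 13.6% lower. Gramd1b, which moves cholesterol from the plasma membrane to the endoplasmic reticulum, stood at 3.22, 2.40 and 3.55 CPM against 8.43, 7.50 and 8.12 CPM (log2 -1.39 ± 0.19, edgeR adjusted p = 0.00125). Its groups did not overlap, and it also fell in myogenic-like cells, at -1.34 ± 0.25 (edgeR adjusted p = 0.0172). Lipa, the lysosomal lipase, fell by 0.44, Cyp27a1, an oxysterol-making hydroxylase, by 1.43, Ch25h, which makes another oxysterol, by 1.54 and the scavenger receptor Msr1 by 1.37 on the log2 scale. Of these Cyp27a1, Ch25h and Msr1 were at most 5.08 CPM. Macrophage markers in the sums of this class were at 197 to 259 CPM in CLL and 354 to 948 CPM in SHAM. Their part in these falls was not tested. Tspo, a mitochondrial outer membrane protein, rose by log2 0.48 ± 0.11 there and by 1.00 ± 0.16 in myogenic-like cells.
In macrophages 2 of 14 rose and 1 fell, beside 1.5% of all genes called higher and 2.36% called lower there. Ch25h stood at 10.6, 16.8 and 9.47 CPM in CLL and at 3.36, 6.12 and 2.75 CPM in SHAM and rose by log2 1.62 ± 0.32 (edgeR adjusted p = 0.0241). Cyp27a1 fell by 1.25 ± 0.24 on the log2 scale, and Msr1 rose by log2 0.57 ± 0.14 (edgeR adjusted p = 0.0186 and 0.0495). In dendritic-like cells 1 of 12 fell, the fatty acid and lipoprotein receptor gene Cd36, at -2.28 ± 0.47 (edgeR adjusted p = 0.0456). Of all genes of that class 0.703% were called lower.

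Of the fatty acid synthesis genes, which are driven mainly by SREBP-1, 2 of 14 rose and 3 fell in fibroblast/tenocyte-like cells, with a median of 0.21. These shares are near the 11.9% and 13.6% of all genes called in that class. Fasn and Me1 rose by log2 0.51 and 0.56, and Scd1, Lpin1 and Elovl5 fell by 0.46, 0.59 and 0.55 (edgeR adjusted p = 0.0113, 0.0234, 0.0329, 0.0168 and 0.0474). In macrophages and myogenic-like cells edgeR called 0 of 14 and DESeq2 called 0, with 4 and 6 genes at an unadjusted edgeR p below 0.05. Of 12 genes that use isoprenoids, 1 rose in fibroblast/tenocyte-like cells, the dolichol synthesis gene Nus1 at log2 0.58 ± 0.15 (edgeR adjusted p = 0.0175). That share is not above the 11.9% of all genes called higher there. Of 10 SREBP processing and sterol sensing genes, 1 rose in that class, a share also not above this 11.9%. It was Tmem97, which encodes the sigma-2 receptor of the endoplasmic reticulum, at 58.4, 56.1 and 64.3 CPM against 24.3, 23.0 and 27.0 CPM. Its groups were far apart, at log2 1.27 ± 0.11 (edgeR adjusted p = 0.00018), and it also rose in myogenic-like cells, by 1.18 ± 0.21 (edgeR adjusted p = 0.0151).

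Across the 5 fitted classes, Fdps and Cyp51 were called higher in 4, and Pmvk, Idi1, Sqle and Msmo1 in 3. Abcg1 was called lower in 4, Mylip in 2 and Abca1 in 3. Several of these calls were lost with a library left out. Fdps passed in 6 of 6 such fits in fibroblast/tenocyte-like, macrophage/monocyte-like and myogenic-like cells. Abcg1 passed in 6 in fibroblast/tenocyte-like and macrophage/monocyte-like cells, but in 0 in myogenic-like cells. Myogenic Idi1 passed in 1 and macrophage Pmvk in 2. In dendritic-like cells Fdps passed in 3, Abcg1, Cyp51 and Pmvk in 2 and Msmo1 in 1. Of the Abca1 calls 1 was in the dendritic-like class, where measured Abca1 was below the bound on macrophage RNA in 5 of 6 libraries. A further 10 members were called in 1 or 2 classes, each time including fibroblast/tenocyte-like cells. The remaining 13 members were called in none of the whole-class fits: Acat2, Ggps1, Tm7sf2, Nsdhl, Sc5d, Dhcr7, Srebf1, Scap, Insig2, Nr1h2, Nr1h3, Soat1 and Npc1. Of these, Acat2 and Insig2 were called in myogenic cluster 2 and Nr1h3 in macrophage cluster 9. Ggps1 was tested in all 5 classes and stayed between -0.10 and 0.00 on the log2 scale. Srebf1, also tested in 5, lay between -0.45 and 0.04.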

How the data were processed

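Single-cell RNA of 6 injured quadriceps was sequenced with 10x 3′ v3.1 chemistry after enzymatic digestion, per the labels' protocols. The deposited files hold raw UMI counts per gene and barcode; Cell Ranger 6.1.2 and mm10 are named in the submitters' processing notes. The members and gene lists were chosen with earlier results of these data known.

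Barcodes with at least 500 UMIs in the files were kept at 300 or more genes and at most 15% mitochondrial UMIs, and scrublet marked 7032 doublets at a preset rate of 0.8% per 1000 barcodes. Cells were clustered in scanpy 1.11.5 (2000 variable genes, 30 components, 15 neighbours, resolution 1) into 28 clusters, 21 of them named from 17 marker lists. Names rest on transcripts alone. Counts were summed per library and class and tested in edgeR 4.0.16 (TMM, filterByExpr, quasi-likelihood, Benjamini-Hochberg), CLL against SHAM without a replicate block. Balances used log2(CPM + 1). DESeq2 1.42.0, other filters, scalings and left-out libraries were alternatives. Same-numbered libraries deviated together only in endothelial-like cells (correlations 0.11, 0.29 and 0.19 over genes), a pairing that comes from the data, not from the labels. Methods were tested on simulated counts.

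Named were 11 fixed members in every class, up to 8 called members per direction and 4 uncalled ones with the smallest p, and up to 4 genes per other list. Further genes were named after their values were seen. 1 gene of the list of LXR targets is not reported here. Gene positions are from GENCODE M21, and 32158 of 32286 identifiers were found among the reference names. P-values rest on these 6 mice, and the depth per class sum stands beside each class.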

Additional observations from a re-analysis of the deposited data

Results flagged for a closer look

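The treatment difference was unlike in macrophage/monocyte-like and fibroblast/tenocyte-like cells for 8 genes of the members and other lists, by the edgeR test of the interaction of class and treatment. Over all genes 336 of 13531 (2.48%) were called. Values are log2 differences, macrophage minus fibroblast. These are values of whole classes whose make-up differed between the groups, and the interaction was not fitted inside clusters. Abca1 gave 1.50 and Ebp -0.63, as above, where the Abca1 ranges inside clusters overlapped. Ch25h gave 3.08 (edgeR adjusted p = 0.0164): it rose in CLL macrophages and fell in CLL fibroblast/tenocyte-like cells. Apoc2 gave 2.69 and Apoc1 gave -2.25 (edgeR adjusted p = 0.0406 and 0.0298). Ch25h and Apoc2 were low in fibroblast/tenocyte-like cells, as given above. Macrophage markers in the sums of that class were 197 to 259 CPM in CLL and 354 to 948 CPM in SHAM, and their part was not tested. Smpdl3a gave 0.98 and Gramd1b gave 0.89 (edgeR adjusted p = 0.0226 and 0.039). Tmem97 gave -0.86 (edgeR adjusted p = 0.0192). Groups of 3 libraries were too small for a search for outlying samples.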

How the results depend on the processing

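Of 1283 alternative values of single genes, 1120 kept direction and side of the threshold, 127 lost the call, 34 gained it and 2 reversed: Insig1 in cluster 15 (-0.0785) and Srebf2 in cluster 14 (-0.0366). In dendritic-like cells the 67 calls over all genes became 489 with no low-count filter, 202 with the replicate block, 1 to 809 with a library left out and 12 without both shallow libraries (CLL replicate 2 and SHAM replicate 3). There the 4 members called higher became 0 to 7, 0 without both shallow libraries and 2 without cycling cells, the 2 lower became 0 to 3 and 0, and the balance of 2.79 became 3.47 at 1000 UMIs per cell, 2.32 with a pseudocount of 5 and 4.04 in cluster 19. In endothelial-like cells 45 calls became 256 with no filter, 80 in DESeq2, 135 with the block, 23 to 62 with a library left out, 18 without both shallow libraries and 29 with more doublets removed. In fibroblast/tenocyte-like cells 3740 calls became 2077 to 3408 and 2345 without both shallow libraries, and 431, 489, 276, 45, 123 and 200 within clusters 0, 11, 13, 14, 15 and 22. The 16 members called higher became 2, 6, 2, 0, 1 and 1 there, the 3 lower became 1 in clusters 14 and 15, and the balance of 2.30 became 1.86 with a pseudocount of 5 and 1.63, 1.15, 3.42, 2.52 and 2.88 within clusters 11, 13, 14, 15 and 22. The balances of clusters 14, 15 and 22 rest on thin counts. In macrophages 436 calls became 1228 with no filter, 44 to 854 with a library left out, 55 without both shallow libraries and 249, 690 and 112 within clusters 7, 9 and 10. The 6 members called higher became 10 with no filter, 1 to 9 and 1 without both shallow libraries, the 2 lower became 1 with the block, 1 to 2 and 1, and the balance of 1.19 became 1.58 in cluster 10. In myogenic-like cells 680 calls became 1503 with no filter, 208 with the block, 166 to 891 with a library left out and 1611 and 0 within clusters 2 and 5. There the members called higher were 8 and 0 and those called lower 4 and 0. Over the class the 5 members called higher became 3 with the block, 2 to 5 with a library left out and 3 without cycling cells, the 2 lower became 1 in DESeq2, with the block, without both shallow libraries and with any library left out, and the balance of 1.59 became 1.26 with a pseudocount of 5 and 1.85 in cluster 2. The 2 members of the interaction became 6 with no filter and 0 to 3 with a library left out. The cause of these shifts was not tested. The labels give no pairing by replicate number, and outside endothelial-like cells same-numbered libraries did not deviate together (correlations from -0.19 to 0.09). The block gave 2799 calls in fibroblast/tenocyte-like cells and 370 in macrophages. The fits inside single clusters were chosen after seeing the data. The thinnest sums were those of CLL replicate 2 in dendritic-like cells and of CLL in endothelial-like cells; the part of depth in the calls was not tested.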
